A study of Bos taurus with 24 samples.

Results

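HAS2, PTGS2, GREM1 and AREG are 4 genes that the cells around the oocyte use when the cumulus mass expands at ovulation. Their rows were taken by gene symbol from the deposited expression table, 1 row per gene, and make up 4 of its 11306 genes. RNA was sequenced from 24 libraries of bovine oocytes in 4 groups of 6: germinal vesicle (GV) and metaphase II (MII) oocytes collected in May (spring) and the same stages collected in July (summer). Oocytes came from crossbred, Angus-based beef cows that were neither pregnant nor lactating, by ultrasound-guided aspiration of follicles. GV oocytes were immature oocytes taken as collected, whereas MII oocytes had been matured inside their cumulus complexes in medium with FSH and fetal serum. Oocytes of both stages were stripped of cumulus cells with hyaluronidase and vortexing, and the methods describe 1 pool per animal, with 4 oocytes in each pool. Individual cells are named in the labels instead. The methods name fewer cows than the 24 libraries and collected from the same cows in each month, so some cows gave several pools. Which pools share a cow is not given in the sources used here, and the tests below treat the libraries as independent.

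In the follicle, the ovulatory surge makes granulosa cells release EGF-like ligands such as AREG, which act on the EGF receptor of cumulus cells. Those cells then make prostaglandin E2 through PTGS2 and spin out a hyaluronan matrix through HAS2, while GREM1, an antagonist of bone morphogenetic proteins (BMPs), is switched on by factors that the oocyte secretes, among them GDF9 and BMP15. The 4 transcripts are measured in cumulus cells as marks of expansion and of oocyte competence, and here they were read in oocytes after the cumulus cells had been removed.

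The table gives FPKM, fragments scaled to gene length and to the fragments of the library, with 0.01 as its lowest value. After 0.01 was subtracted, the values of a gene were whole multiples of a step, and the step followed the relative depth of the library and the distance between the listed start and stop of the gene, introns included. Fragments could therefore be recovered for all 4 genes, with no value further than 0.0057 from a whole number. Because the length used was the genomic span, which is 30189 bases for HAS2 and 1381 bases for GREM1, levels are compared here between groups within a gene and not between genes. In May GV replicate 1, a value of 1 FPKM stood for 313.4 fragments of HAS2, 79.14 of PTGS2, 126.1 of AREG and 14.33 of GREM1.

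Recovered fragments numbered between 2543614 and 28207787 in 22 libraries, 324654 in May GV replicate 6 and 1028738 in May MII replicate 6. These 2 libraries and July GV replicate 2 had a relative depth of 0.0565, 0.149 and 0.393, taking May GV replicate 1 as 1, and are called shallow below. In them between 41.0% and 52.8% of the 9526 genes tested stood above every other library of their group. The tissue label held: 13 oocyte markers, among them the egg coat gene ZP2, summed to between 543.7 and 1955 FPKM in every library.

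HAS2, which encodes the main hyaluronan synthase of the expanding cumulus, was higher in MII than in GV oocytes in both months. The gene lies on chromosome 14 from 19703611 to 19733799 on the plus strand of assembly UMD3.1.1. In May its level was 0.157 FPKM in the lowest GV library, 0.277 at the median and 0.445 in the highest, and in MII oocytes it ran from 1.19 through a median of 1.45 to 3.99 FPKM. All 6 MII libraries stood above all 6 GV libraries. Among the genes tested, 4.65% had MII values wholly above the GV values in May.

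The mean of HAS2 was 0.297 ± 0.133 FPKM in GV oocytes of May and 1.82 ± 1.07 FPKM in MII oocytes of May (SD, n = 6 each), a ratio of 6.30. On log2(FPKM + 1) the difference was 1.06 (standard error 0.20, limma with Benjamini-Hochberg adjustment, adjusted p = 0.00277). The two-sided exact permutation test gave p = 0.00216, the smallest value that 6 against 6 libraries allow. HAS2 was called higher by the thresholds of the study, which ask for a fold change over 2 at an unadjusted p under 0.05, as were 3.57% of the genes tested. The thresholds were applied here to limma differences of log2(FPKM + 1), whereas the study used Partek. The fold change on this scale lay close to 2, and without May MII replicate 6, the shallow library with the highest value, it fell to 0.88 and was no longer called.

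In July the level of HAS2 was 0.217 FPKM in the lowest GV library, 0.351 at the median and 1.20 in the highest, against 0.875, 1.77 and 3.64 FPKM in MII oocytes. The groups overlapped through a single pair of libraries, since July GV replicate 2, which is shallow, stood above July MII replicate 3. Of all genes tested, 3.07% had MII values wholly above GV values in July. Means were 0.486 ± 0.373 FPKM and 2.15 ± 1.09 FPKM (SD, n = 6 each), a ratio of 4.49.

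The July difference of HAS2 was 1.04 on log2(FPKM + 1) (standard error 0.24, limma adjusted p = 0.00557, exact permutation p = 0.00433, two-sided). It was called higher, as were 2.2% of the genes tested. It passed under the fold threshold without July GV replicate 3, July GV replicate 5, July MII replicate 4 or July MII replicate 6, with the lowest value at 0.92, and rose to 1.16 without the shallow July GV replicate 2.

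The pseudocount of 1 FPKM is large beside the level of HAS2 and shrinks its fold change. In recovered fragments, HAS2 had 35 to 121 fragments in the 5 deeper GV libraries of May, 6 in the shallow replicate 6, and 186 to 377 in the MII libraries of May. In July the range was 78 to 422 in GV and 268 to 646 in MII libraries. Scaled to 1000000 recovered fragments in each library (CPM), the mean was 20.2 ± 8.45 CPM in GV and 101.4 ± 39.2 in MII oocytes of May, and 29.9 ± 16.5 and 121.0 ± 49.8 in July (SD, n = 6 each).

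A fit on these fragments with limma voom, chosen after the data had been seen, gave log2 fold changes of HAS2 of 2.30 in May (standard error 0.35, adjusted p = 1.08e-04) and 2.19 in July (standard error 0.38, adjusted p = 3.09e-04). Over all the settings tried, its adjusted p lay between 0.000108 and 0.00859 in May and between 0.000146 and 0.0147 in July. Limma voom called HAS2 higher in both months, as it did 10.3% of the genes tested in May and 6.02% in July. On the fragment scale the median of all genes lay at −0.49 in May and −0.48 in July, and relative to that median HAS2 differed by 2.79 and 2.67. The libraries hold RNA in bulk, so more copies per oocyte and a larger share among fewer other transcripts cannot be told apart, nor can fewer attached cells from less RNA per cell.

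**Figure D1:**
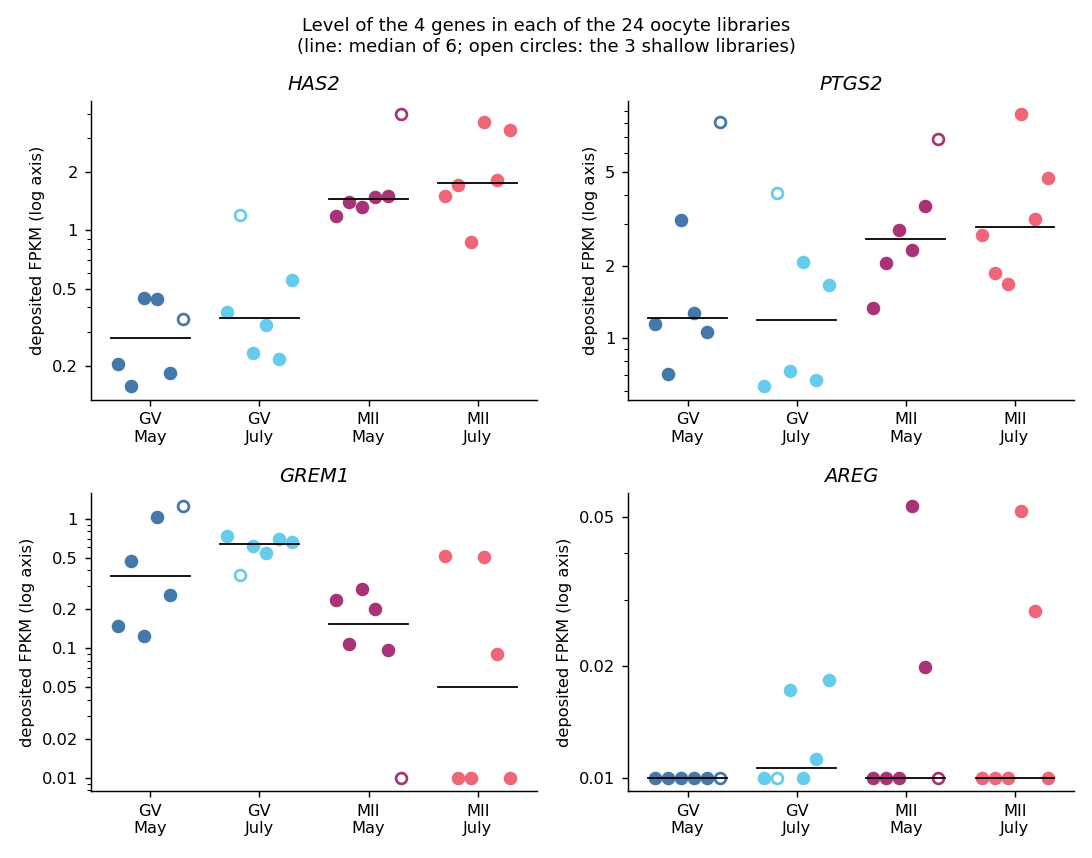
Deposited FPKM (log axis) of HAS2, PTGS2, GREM1 and AREG in each of the 24 libraries, by stage and month, with a line at the median of 6 and open circles for the 3 shallow libraries. HAS2 shows no overlap between GV and MII oocytes in May, PTGS2 overlaps in both months, GREM1 lies lower in most MII libraries, and AREG sits at the lowest listed value of 0.01 in 17 libraries.

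PTGS2, the inducible cyclooxygenase of prostaglandin synthesis, had higher medians in MII oocytes but overlapped between the stages in both months. It lies on chromosome 16 from 69263776 to 69271400 on the minus strand. In May its level was 0.707 FPKM in the lowest GV library, 1.21 at the median and 8.06 in the highest, and in MII oocytes 1.33, 2.60 and 6.87 FPKM. The highest GV value came from the shallow replicate 6 and stood above every MII library.

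The May difference of PTGS2 was 0.39 on log2(FPKM + 1) (standard error 0.41, limma adjusted p = 0.476, exact permutation p = 0.394, two-sided) and did not pass the test. In July the level was 0.630 FPKM in the lowest GV library, 1.20 at the median and 4.06 in the highest, against 1.68, 2.93 and 8.68 FPKM in MII oocytes. July GV replicate 2, again shallow, stood above 4 of the 6 MII libraries, and the other 5 GV libraries lay at or under 2.09 FPKM. The July difference was 0.84 (standard error 0.36, limma adjusted p = 0.0951, exact permutation p = 0.0563, two-sided), with a limma p of 0.0371 but a fold change under 2, so PTGS2 was not called.

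Its July call changed with the settings. Without July GV replicate 2 the difference was 1.06 and PTGS2 was called, and with that library kept it was also called with a pseudocount of 0.1 (1.25), with none (1.33) and after quantile normalization (1.13). In recovered fragments, of which PTGS2 had between 36 and 390 per library, the July difference was 1.25 (standard error 0.44, limma voom adjusted p = 0.0333). It was called higher there, as were 6.02% of the genes tested. Over all settings the adjusted p of PTGS2 in July ran from 0.00217 to 0.183. Relative to the median of all genes on the fragment scale, PTGS2 differed by 1.73 in July and by 1.02 in May. PTGS2 was the highest of its group in all 3 shallow libraries, with 8.06 FPKM in May GV replicate 6, 4.06 in July GV replicate 2 and 6.87 in May MII replicate 6. The part of depth in its level was not tested.

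GREM1 went the other way. It lies on chromosome 10 from 30038591 to 30039971 on the minus strand. In May its level was 0.125 FPKM in the lowest GV library, 0.362 at the median and 1.25 in the highest, and in MII oocytes 0.01, 0.155 and 0.285 FPKM. The 3 highest GV libraries stood above every MII library, and the 3 others fell within the MII range. Both ends of the GV range were single fragments, in replicate 3 and in the shallow replicate 6.

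The May difference of GREM1 was −0.37 on log2(FPKM + 1) (standard error 0.17, limma adjusted p = 0.126, exact permutation p = 0.0714, two-sided). In July the GV libraries were close together, from 0.366 through a median of 0.639 to 0.734 FPKM, and the MII libraries ran from 0.01 through 0.0498 to 0.517 FPKM. In 4 of the 6 MII libraries GREM1 stood below all GV libraries. The July difference was −0.45 (standard error 0.13, limma adjusted p = 0.0166, exact permutation p = 0.0130, two-sided), which passed the adjusted threshold but not a fold change of 2 on that scale. A limma adjusted p under 0.05 was met in July by 2929 of the 9526 genes tested, in either direction. The ratio of mean FPKM, less 0.01, between MII and GV oocytes was 0.273 in May and 0.303 in July. Of all genes tested, 8.25% were called lower in MII oocytes in May and 9.26% in July, and 8.98% and 14.7% had MII values wholly below the GV values.

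GREM1 rested on few fragments. The 6 GV libraries held 25 fragments in May and 111 in July, of which 64 came from the deep July GV replicate 5, and the MII libraries held 10 and 12. Pooled over a group this was 1.45 CPM (exact 95% Poisson interval 0.939 to 2.14) in GV and 0.482 (0.231 to 0.886) in MII oocytes of May, and 2.13 (1.76 to 2.57) and 0.484 (0.250 to 0.846) in July. These intervals cover counting error only. With limma voom on the fragments the July difference was −2.59 (standard error 0.68, adjusted p = 0.00651), and −2.11 relative to the median of all genes. GREM1 was called lower there, as were 34.4% of the genes tested. In May the difference was −1.24 (standard error 0.65, adjusted p = 0.135), or −0.76 relative to that median, and was not called. Over all settings the adjusted p of GREM1 ran from 0.00606 to 0.0489 in July and from 0.0680 to 0.266 in May.

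AREG, the EGF-like ligand at the head of the cascade, was close to undetected. It lies on chromosome 6 from 91126256 to 91138402 on the plus strand. Its highest value was 0.0535 FPKM, under the 0.1 FPKM that a gene needed in 1 library to enter the fit. Only 14 fragments were recovered over the 24 libraries, none in GV oocytes of May, 4 in GV oocytes of July, and 5 in MII oocytes of each month.

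Of the 7 libraries with any AREG fragment, May MII replicate 4 had the most with 4 fragments, followed by July MII replicate 4 with 3. In the 17 libraries without a fragment, a count of 0 allows up to 3 fragments, which is between 0.644 and 9.24 CPM by library, so a level under that could not be told from 0 there. In exact permutation tests of log2(FPKM + 1), two-sided, MII and GV oocytes gave p = 0.455 in May and p = 0.455 in July.

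**Figure D2:**
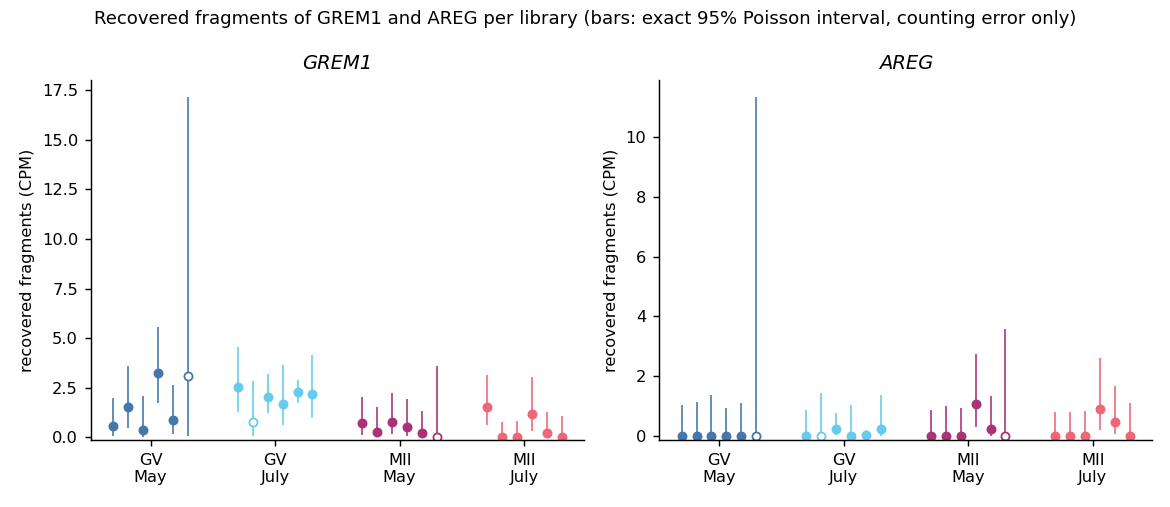
Recovered fragments of GREM1 and AREG (CPM) in each library, with two-sided exact 95% Poisson intervals (counting error only), which at 0 fragments reach above the limit of 3 fragments, and open circles for the 3 shallow libraries. GREM1 reaches 3.24 CPM in GV libraries and 1.52 in MII libraries, and AREG stays at or under 1.07 in all libraries.

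No difference between the months of collection passed the test for any of the 4 genes. Between July and May, HAS2 differed by 0.17 in GV oocytes (standard error 0.14, two-sided exact permutation p = 0.294) and by 0.15 in MII oocytes (standard error 0.26, exact permutation p = 0.608). PTGS2 differed by −0.29 (standard error 0.42, exact permutation p = 0.552) and 0.16 (standard error 0.35, exact permutation p = 0.667). GREM1 differed by 0.10 (standard error 0.18, exact permutation p = 0.587) and 0.02 (standard error 0.12, exact permutation p = 0.885).

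For AREG the exact permutation p between the months was 0.182 in GV and 1 in MII oocytes. None of HAS2, PTGS2 and GREM1 was called by limma between the months, with unadjusted p between 0.254 and 0.862, nor by limma voom on the fragments. Called in either direction were 0.0315% of the genes tested in GV and 0.042% in MII oocytes. In order of mean level, HAS2 stood highest in MII oocytes of July, then MII of May, GV of July and GV of May, and the neighbours that differ by month only were not told apart by the test. PTGS2 stood at 3.80 FPKM in MII of July, 3.17 in MII of May, 2.56 in GV of May and 1.64 in GV of July, and GREM1 at 0.602 in GV of July, 0.546 in GV of May, 0.190 in MII of July and 0.156 in MII of May. Differences between GV oocytes of 1 month and MII oocytes of the other were not tested.

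Whether the stages differed more in 1 month was tested as an interaction, which came to −0.02 for HAS2 (standard error 0.31, exact permutation p = 0.955), 0.45 for PTGS2 (standard error 0.56, exact permutation p = 0.446) and −0.08 for GREM1 (standard error 0.22, exact permutation p = 0.716). No member was called there, against 0.21% of the genes tested. The call of HAS2 in both months and the July result of GREM1 are therefore not shown to be larger in 1 season.

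**Figure D3:**
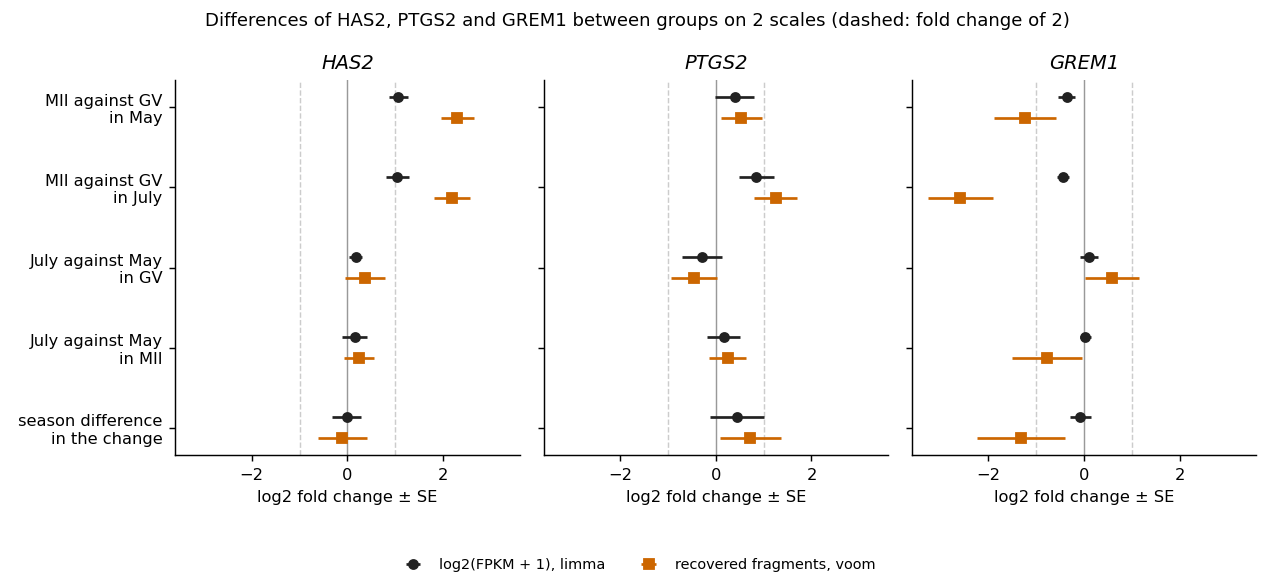
Differences of HAS2, PTGS2 and GREM1 in the 4 comparisons and in the season difference of the change, as log2 fold change ± SE from limma on log2(FPKM + 1) (circles) and limma voom on recovered fragments (squares); dashed lines mark a fold change of 2. HAS2 lies at 1.06 and 1.04 on the first scale and at 2.30 and 2.19 on the second in May and July, and GREM1 moves from −0.45 to −2.59 in July between the scales.

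The other genes of the 4 pathways were read from lists chosen for their roles. Of all genes tested, an unadjusted limma p under 0.05 was met by 16.0% higher and 22.8% lower in MII oocytes in May, and by 12.5% and 29.5% in July. Limma voom called 10.3% higher and 31.4% lower in May, and 6.02% and 34.4% in July, beside 3.57% and 8.25%, and 2.2% and 9.26%, called on log2(FPKM + 1). The counts of the lists stand against these shares, and with lists of 4 to 20 genes nothing is read from them beyond the genes named.

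Of the 12 hyaluronan and matrix genes tested beside HAS2, 1 was called higher in MII oocytes in each month and none lower. At an unadjusted limma p under 0.05 there were 3 higher and 1 lower in May and 4 higher and 2 lower in July, and limma voom called 3 higher and 2 lower in each month. Their median difference was −0.05 in May and 0.03 in July, beside −0.03 and −0.02 over all genes. The called gene was HMMR, a hyaluronan receptor that also binds the spindle, with 1.76 ± 0.607 FPKM in GV and 7.56 ± 2.68 FPKM in MII oocytes of May (SD, n = 6 each). Its difference was 1.60 in May (standard error 0.24, limma adjusted p = 0.000621) and 1.21 in July (standard error 0.23, limma adjusted p = 0.00207).

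UGDH and UGP2 help to make a sugar nucleotide that HAS2 uses to build hyaluronan, and were looked at after their values had been seen. Neither was called on log2(FPKM + 1), where UGDH differed by 0.61 in May (limma adjusted p = 0.0110) and 0.65 in July (limma adjusted p = 0.00363). UGP2 differed by 0.84 (limma adjusted p = 0.00259) and 0.57 (limma adjusted p = 0.0365). On the fragments limma voom called UGDH higher in both months, at 1.52 (adjusted p = 0.00275) and 1.72 (adjusted p = 0.000376), and UGP2 in May only, at 1.20 (adjusted p = 0.00106) against 0.77 in July (adjusted p = 0.0180). The hyaluronidase genes HYAL2 and HYAL3, also chosen after their values were seen, had lower pooled levels in MII oocytes, and no test of them is given here. Of all genes tested, limma voom called 31.4% lower and 10.3% higher in May, and 34.4% and 6.02% in July. Pooled over a group, HYAL2 was at 10.2 CPM in GV and 2.89 in MII oocytes of May, and at 7.69 and 2.14 in July. HYAL3 was at 2.61 and 0.193 CPM in May and at 1.69 and 0.121 in July. The matrix proteins PTX3 and TNFAIP6, also chosen after their values were seen, had 276 and 47 fragments over the 24 libraries. TNFAIP6, which joins heavy chains to hyaluronan, was at 0 in 14 of them. Pooled, PTX3 was at 1.92 CPM in GV and 4.00 in MII oocytes of May, and at 1.29 and 3.75 in July. TNFAIP6 was at 0.174 and 0.964 CPM in May and at 0.0961 and 0.767 in July.

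None of the 8 prostaglandin E2 genes tested beside PTGS2 was called in either month by limma on log2(FPKM + 1). With an unadjusted p under 0.05 there was 1 higher gene in May, and 1 higher and 2 lower genes in July, and limma voom called 1 higher and 2 lower genes in May and 2 lower genes in July. Their median difference was −0.02 in May and 0.00 in July.

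Of the 4 genes tested from the EGF-like list, which AREG heads, HBEGF was called higher in May, with 5.67 ± 2.48 FPKM in GV and 13.4 ± 4.46 FPKM in MII oocytes (SD, n = 6 each). HBEGF is a ligand of the same receptor family. Its difference was 1.16 in May (standard error 0.30, limma adjusted p = 0.0141) and 0.55 in July (standard error 0.23, limma adjusted p = 0.0912), where it was not called. ADAM10, a protease that releases such ligands from the membrane, was named after its values were seen. It was not called on log2(FPKM + 1), with 0.09 in May (limma adjusted p = 0.239) and 0.08 in July (limma adjusted p = 0.0290). Limma voom called it higher at 2.47 in May (adjusted p = 0.00123) and 1.41 in July (adjusted p = 0.00729), and called HBEGF in May only. At an unadjusted limma p under 0.05 this list had 1 higher gene in May and 2 in July, and none lower.

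Of the 20 genes tested beside GREM1 from the list of BMP antagonists and the GDF9/BMP15 pathway, 1 was called higher and 1 lower in May and none in July. At an unadjusted limma p under 0.05 there were 4 higher and 1 lower in each month, and limma voom called 3 higher and 3 lower in May and 4 higher and 1 lower in July. The higher gene was BMP15, the oocyte factor itself, at 10.8 ± 7.10 FPKM in GV and 26.8 ± 10.7 FPKM in MII oocytes of May (SD, n = 6 each), a difference of 1.35 (standard error 0.42, limma adjusted p = 0.0354). The lower gene was ID2, a target of BMP signals, which differed by −1.58 (standard error 0.70, limma adjusted p = 0.116). Its level reached 44.4 FPKM in the shallow May GV replicate 6 and was 1.12 at the GV median, and without May GV replicate 3 the number of called genes over the 4 lists, members aside, went from 4 to 2.

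Between the months and in the season difference, no gene of the 4 lists had an unadjusted limma p under 0.05, and limma voom called none.

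**Figure D4:**
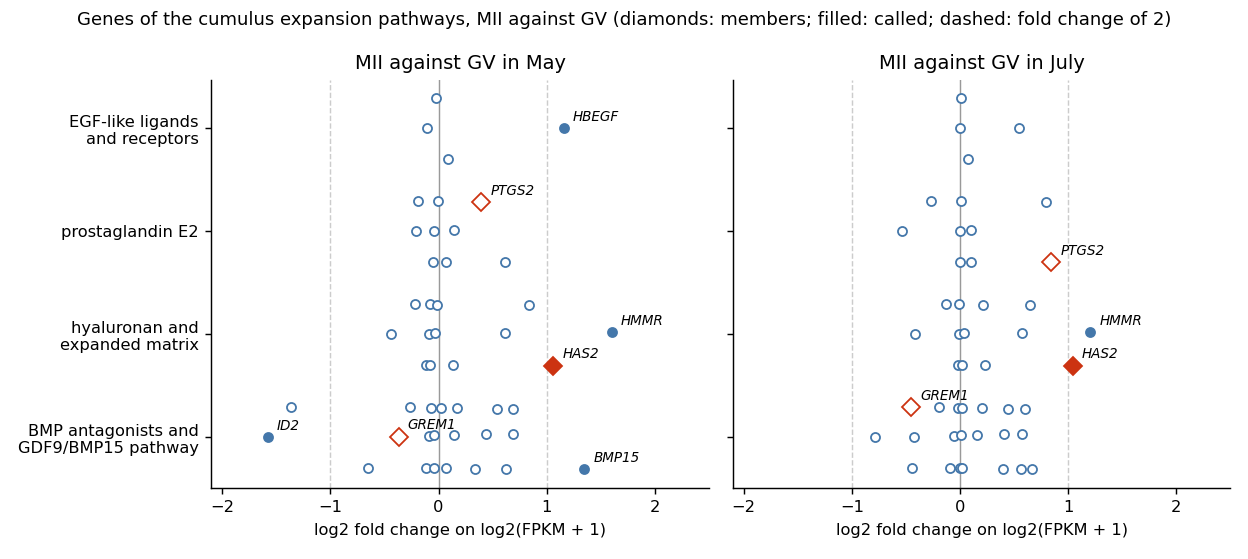
Log2 fold change on log2(FPKM + 1) between MII and GV oocytes for the tested genes of the 4 pathway lists in May and in July, with members as diamonds, called genes filled, and dashed lines at a fold change of 2; the vertical spread within a list is for legibility only. HAS2 and HMMR are filled in both months, and HBEGF, BMP15 and ID2 in May only on this plot, although the difference between the months was not called for any of them.

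As a measure of cumulus RNA in the libraries, a marker level was read from 26 genes listed as markers of cumulus and granulosa cells. Of these, 22 passed the filter. The list also holds matrix genes, LUM, DCN, COL1A2, COL4A1 and SPARC, and how far the level measures cumulus RNA was not tested. Their summed FPKM ran from 70.0 to 622 in GV and from 53.3 to 168 in MII oocytes of May, and from 85.2 to 193 and from 41.4 to 91.5 in July. At the group medians most of the sum came from AKR1B1, STAR and KRT8, which were measured in every library. The FSH receptor FSHR was at 0 in 21 libraries, and the AMH receptor AMHR2 in 19.

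A pair of GV libraries of May stood apart, replicate 3 by the mean log2(FPKM + 1) of the markers, 1.96, and the shallow replicate 6 by their summed FPKM, 622. Replicate 6 held the highest value of all 24 libraries for 7 of the 26 markers, among them KRT18 at 392 FPKM and KRT8 at 146. The keratins made up most of its sum. AMH, CYP11A1 and TIMP1 were at the lowest listed value of 0.01 in this shallow library. Within its group, replicate 6 held the highest value for 44.4% of all genes tested. In it HAS2 was at 0.349 FPKM and PTGS2 at 8.06, the highest of its group. Replicate 3 held the highest value for 11 of the 26, among them VIM at 75.7 FPKM, HSD17B1 at 39.5, INHA at 37.2 and AMH at 13.4. The share of all genes with their highest value of the 24 libraries in either replicate was not computed. In replicate 3 HAS2 was at 0.445 FPKM, level with replicate 4 at the top of its group and under all MII libraries. PTGS2 was at 3.12 FPKM, the second highest of its group. GREM1 was at 0.125 FPKM, the lowest of its group, which stands for 1 fragment (0.372 CPM, exact 95% Poisson interval 0.00941 to 2.07), and AREG was at 0 fragments. Without May GV replicate 3 the May differences were 1.09 for HAS2, 0.49 for PTGS2 and −0.45 for GREM1, none of which changed its call.

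Between the stages, the median of the summed marker FPKM was 117.6 in GV and 67.4 in MII oocytes of May, and 96.2 and 67.5 in July, whereas the median of the mean log2(FPKM + 1) was 0.820 and 0.745 in May and 0.764 and 0.712 in July. Of the 22 markers tested, limma called none higher and 1 lower in each month, AKR1B1, with a median of 43.2 FPKM in GV and 17.9 in MII oocytes of May. Of all genes tested, limma called 3.57% higher and 8.25% lower in May, and 2.2% and 9.26% in July. Limma voom called 10.3% higher and 31.4% lower of all genes in May, and 6.02% and 34.4% in July. Of the 22 markers, limma voom called 1 higher and 4 lower in May and 1 higher and 3 lower in July. The higher one was TIMP1, a metalloprotease inhibitor, named after its values were seen, with a median of 0.0714 FPKM in GV and 0.809 in MII oocytes of May and a limma voom difference of 2.72 (adjusted p = 0.0217), and 2.95 in July (adjusted p = 0.00404). KRT8 had a median of 18.7 FPKM in GV and 26.9 in MII oocytes of May, and 18.0 in both stages in July. HSD17B1 and VIM, also named after their values were seen, had lower medians in MII oocytes, and limma called neither. HSD17B1 went from 0.829 FPKM in GV to 0.209 in MII oocytes of May, and from 0.993 to 0.0491 in July. VIM went from 0.215 to 0.0744 in May and from 0.176 to 0.0546 in July. Other markers, also named after their values were seen, had higher medians in MII oocytes. GJA1 went from 0.56 FPKM in GV to 0.77 in MII oocytes of May, and from 0.45 to 0.61 in July. INHBA, PRSS35 and GATM had higher medians in MII oocytes in May and lower ones in July.

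With the mean log2 marker level as a covariate, the difference of HAS2 was 1.17 in May and 1.26 in July, and both calls held. That of PTGS2 was 0.83 in May and 1.23 in July, and it was called in July only, and that of GREM1 was −0.40 and −0.44. For blood and immune cells, 8 of the 11 listed markers passed the filter and summed to between 2.51 and 21.3 FPKM, and for theca and stroma 4 of 7 passed and summed to between 0.915 and 12.9 FPKM. Their part in the results was not tested.

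Within a stage, HAS2 and PTGS2 rose with the marker level in MII oocytes, a relation that did not pass after adjustment once the keratins were left out. Over the 12 MII libraries Pearson's r was 0.741 for HAS2 (permutation p = 0.00474, adjusted over 8 relations p = 0.0190, Spearman's rho 0.53, permutation p = 0.0805). For PTGS2 r was 0.797 (permutation p = 0.00167, adjusted p = 0.0134, rho 0.755, permutation p = 0.00654). Without the 2 libraries farthest from the median marker level r was 0.761 and 0.758. Of the other genes tested, 17.8% and 9.91% had an r with the marker level at least as high, and their median r was 0.293.

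Within months, r for HAS2 was 0.930 in May (n = 6, exact permutation p = 0.0625) and 0.719 in July (exact permutation p = 0.129), and for PTGS2 0.874 (exact permutation p = 0.0389) and 0.847 (exact permutation p = 0.0306). The relation moved with depth and with keratin 18: the 3 MII libraries of lowest depth, at 0.149, 0.542 and 0.568, held the 3 highest values of HAS2 and of PTGS2, and KRT18 stood there at 70.8, 16.6 and 8.93 FPKM, where the other MII libraries had 2.40 or less. With KRT8 and KRT18 left out of the markers, r fell to 0.493 for HAS2 (permutation p = 0.104) and 0.659 for PTGS2 (permutation p = 0.0193, adjusted p = 0.155), and neither passed after adjustment. The part of depth was not tested.

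In the 12 GV libraries, r with the marker level was 0.280 for HAS2 (permutation p = 0.305, rho 0.077, permutation p = 0.816) and 0.694 for PTGS2 (permutation p = 0.0231, adjusted p = 0.0616, rho 0.490, permutation p = 0.111). Of the genes tested other than the markers, 39.8% had an r at least as high as HAS2 in GV oocytes, and 5.75% as PTGS2. Without the 2 farthest libraries, May GV replicates 3 and 6, r was 0.733 for HAS2 and 0.723 for PTGS2. For GREM1 r was −0.203 in GV (permutation p = 0.530, rho −0.217, permutation p = 0.50) and 0.252 in MII oocytes (permutation p = 0.428, rho 0.317, permutation p = 0.315). For AREG it was −0.272 (permutation p = 0.278, rho −0.395, permutation p = 0.209) and 0.189 (permutation p = 0.547, rho 0.096, permutation p = 0.769). Over the 12 libraries of a stage, neither GREM1 nor AREG passed the test.

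Within months, with 6 libraries each and p not adjusted, r in GV oocytes of May and July was 0.599 (exact permutation p = 0.249) and 0.858 (exact permutation p = 0.156) for HAS2, and 0.702 (exact permutation p = 0.136) and 0.807 (exact permutation p = 0.0611) for PTGS2. For GREM1 it was −0.085 (exact permutation p = 0.911) and −0.918 (exact permutation p = 0.0181), and the July library with the highest marker level, the shallow replicate 2, held the lowest GREM1 value, 2 fragments. In MII oocytes r for GREM1 was −0.537 (exact permutation p = 0.263) and 0.633 (exact permutation p = 0.242). For AREG r was −0.411 in GV of July (exact permutation p = 0.408), where GV of May held no fragment, and −0.083 (exact permutation p = 0.80) and 0.474 (exact permutation p = 0.40) in MII oocytes.

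**Figure D5:**
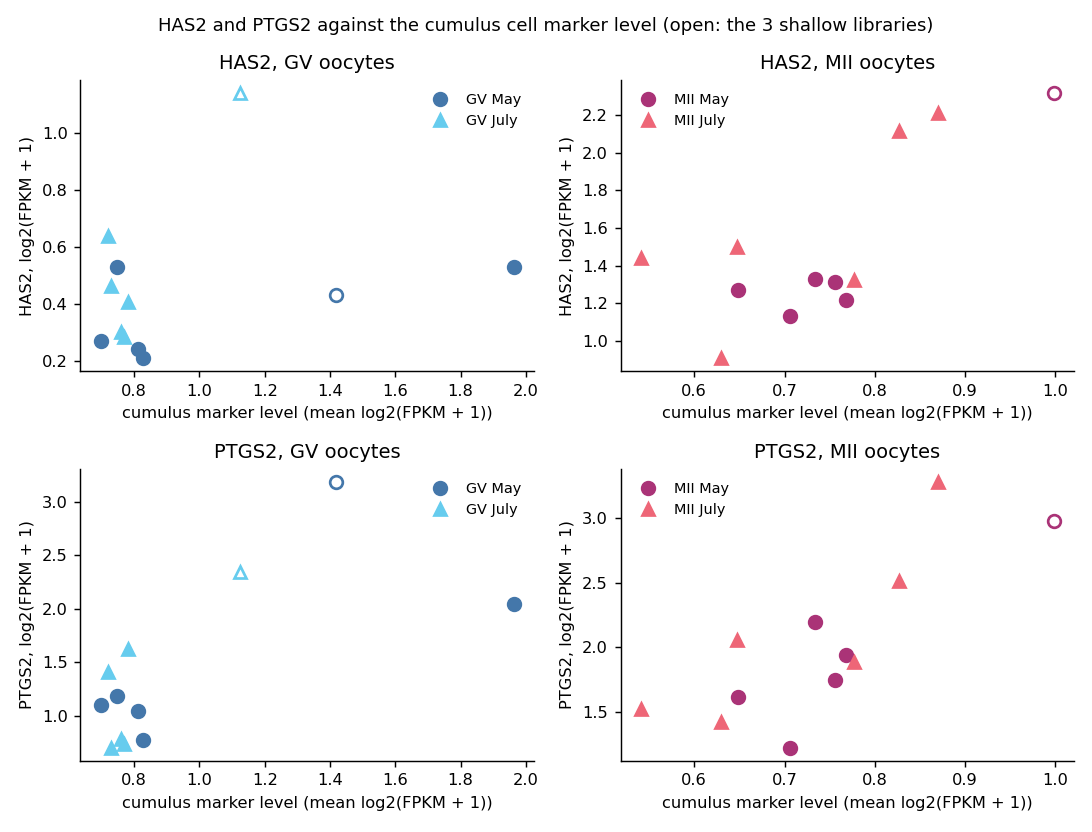
HAS2 and PTGS2 (log2(FPKM + 1)) against the mean log2(FPKM + 1) of 26 cumulus cell markers in GV and MII libraries, with circles for May, triangles for July and open symbols for the 3 shallow libraries. In MII oocytes r is 0.741 for HAS2 and 0.797 for PTGS2, with the 3 shallowest MII libraries at the top right. In GV oocytes the library highest on this mean log2 scale, May GV replicate 3 at 1.96, does not hold the highest value of either gene. May GV replicate 6, highest by summed FPKM, most of it KRT18 and KRT8, holds the highest PTGS2.

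Among the members, HAS2 and PTGS2 varied together most closely, with r = 0.52 over the 12 GV libraries and 0.903 over the 12 MII libraries, which share the depth of each library. GREM1 had an r with HAS2 of 0.01 in GV and −0.01 in MII oocytes. Over all 24 libraries, the genes whose pattern was most like that of HAS2 were PPM1B, a protein phosphatase (r = 0.965), WRB (0.964) and DCP1A, an mRNA decapping factor (0.964). For PTGS2 they were RAB5A, a GTPase of early endosomes (0.966), FAM120A (0.962) and GNAI1, an inhibitory G protein subunit (0.960). None of these 6 genes is in a list read here.

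GREM1 was most like SLC5A1, an intestinal type sodium-glucose transporter (r = 0.855), EIF3I, a translation initiation factor subunit (0.813), and OSGEPL1 (0.786). AREG, with 17 of 24 libraries at 0, was nearest to SPIC (0.731), C1GALT1 (0.729) and NR4A2 (0.724), where Spearman's rho was 0.162, 0.448 and 0.472. These values are descriptions over libraries that differ in stage and depth.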

How the data were processed

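The deposited table holds 1 FPKM value per gene for each of 24 libraries, made from Smart-seq2 cDNA. The authors aligned trimmed reads with STAR 2.5.3a to UMD3.1.1 (UMD3.1 in the labels) and computed FPKM, stated as per kilobase of exon. The FPKM values deposited by the authors share a common total, carry an added 0.01 and follow gene span instead: for 98.43% of 5427 genes the step times the span held within 0.3%, and 98.47% of 182721 values of up to 300 fragments were whole within 0.1. Genes over 0.1 FPKM in at least 1 library (9526) went into limma 3.58.1 (R 4.3.3, trended moderation) on log2(FPKM + 1) between the 2 groups compared. A call needs a fold change over 2 at an unadjusted p under 0.05. Exact permutation tests used 924 assignments of 6 and 6 libraries, or 853776 for the season difference, and correlations 100000 permutations. Python 3.11.15, numpy 2.4.6, pandas 2.3.3 and scipy 1.17.1 were used. Scripts were tested on simulated data. Partek was not used.

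The members, gene lists and alternatives were chosen with earlier results of these data known. Named genes are the members, the called genes of each list (at most the 3 with the smallest p), the 3 genes most alike each member, and those said to be chosen after their values were seen. Lists for EGF-like ligands, prostaglandin E2, hyaluronan and BMP/GDF9 had 6 of 12, 11 of 13, 17 of 24 and 24 of 28 genes in the table, and cumulus markers 26 of 30; the others were not analysed here. Same-numbered libraries were not treated as pairs, and the tests took the libraries as independent although cows recur among them.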

Additional observations from a re-analysis of the deposited data

Results flagged for a closer look

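With 6 libraries in a group, 15 groups of values were examined for a library far from the others. The limit used would mark about 1 in 20 by chance if the values were normally distributed, which was not tested. AREG in MII oocytes of May was at the lowest value in 4 of 6 libraries, so that share does not apply to it. Such a library was found in 4 of the 15 groups. HAS2 in GV oocytes of July was 1.20 FPKM in replicate 2 and at most 0.557 FPKM in the others. HAS2 in MII oocytes of May was 3.99 FPKM in replicate 6 and at most 1.51 FPKM in the others. PTGS2 in GV oocytes of May was 8.06 FPKM in replicate 6 and at most 3.12 FPKM in the others. All 3 of these libraries are the shallow ones, with relative depths of 0.393, 0.149 and 0.0565, and the part of depth was not tested. AREG in MII oocytes of May was 0.0535 FPKM in replicate 4, which stands for 4 fragments, and no other library of that group had more than 1.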

How the results depend on the processing

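Over the alternatives run on the differences of HAS2, PTGS2 and GREM1 and on the marker relations, 468 values kept their direction and side of the threshold, 16 no longer passed it, 13 newly passed it and 26 turned direction. For HAS2, the May difference between MII and GV oocytes was 0.99 with median-of-ratios scaling, 0.90 without the shallow libraries, and 0.88 to 1.12 as each library was left out, and in July 0.92 to 1.18. A fold change near 2 put these on either side of the call. PTGS2 in July was called with a pseudocount of 0.1 (1.25), with none (1.33), with quantile normalization (1.13), without the shallow libraries (1.06), with the marker level as covariate (1.23) and in recovered fragments (1.25), and ran from 0.61 to 1.06 as each library was left out, called without July GV replicate 2. GREM1 was called with a pseudocount of 0.1 (−1.10 in May, −1.70 in July), with none (−1.83, −3.46) and, in July, in recovered fragments (−2.59), since the pseudocount of 1 FPKM shrinks the difference of a gene at its level. The fit with a filter on a mean of 1 FPKM held no GREM1.

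Direction turned only where no difference had passed. PTGS2 between the months in GV was 0.093 with the marker covariate and −0.50 to 0.038 as each library was left out, turning without May GV replicate 6, and in MII −0.069 to 0.37, turning without July MII replicate 4. GREM1 between the months in MII was −0.15 with a pseudocount of 0.1, −0.99 with none, −0.017 without the shallow libraries, −0.78 in recovered fragments and −0.054 to 0.063 as each was left out. The season difference of HAS2 was 0.12 with quantile normalization, 0.11 with median-of-ratios scaling, 0.27 without the shallow libraries and −0.14 to 0.16 as each was left out, that of GREM1 −0.20 to 0.00025, and AREG between the months in MII was −0.00093 without the shallow libraries and −0.0074 to 0.011.

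With the marker level in MII oocytes, r for HAS2 was 0.464 with a pseudocount of 0.1, 0.595 without the shallow libraries, 0.493 without the keratins and 0.595 to 0.841 as each library was left out. For PTGS2 r was 0.655, 0.730, 0.659 and 0.730 to 0.835, and after adjustment none of the first 3 passed for either gene, nor did HAS2 without May MII replicate 6 or July MII replicate 4, or PTGS2 without May MII replicate 6. In GV oocytes r for PTGS2 ran from 0.650 to 0.901, passing without May GV replicate 3, for GREM1 from −0.551 to 0.392, turning without that library, and for AREG in MII oocytes from −0.021 to 0.419. The cause of these turns was not tested. With the replicate number as a replicate block, HAS2 differed by 1.06 in May and 1.04 in July, PTGS2 by 0.39 and 0.84 and GREM1 by −0.37 and −0.45, and no call of a member changed. Over all genes it gave 350 higher and 787 lower calls in May and 210 and 879 in July. Deviations from the group means of same-numbered libraries correlated from −0.441 to 0.764, over 0.1 in 1 to 4 of 6 pairs by comparison, and 0 to 4 of 6 libraries lay closest to their own number, the most between the months in MII oocytes. As no comparison had all 6 pairs over 0.1, the numbers were not taken as pairs. This rule does not show that same-numbered libraries came from different cows.

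Genes called in May were 340 higher and 786 lower, in July 210 and 882. They were 960 and 1668 with a pseudocount of 0.1, 1371 and 2165 with none, and 984 and 2987 in recovered fragments in May, and 556 and 1965, 830 and 2762, and 573 and 3275 in July. Quantile normalization gave 557 and 648 in May and 494 and 672 in July. Depth limits AREG and GREM1 most, which had 14 and 158 fragments in all.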
